A study of Mus musculus with 12 samples.

Results

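Cutaneous squamous cell carcinoma (cSCC) raised by ultraviolet light in wild-type (WT) mice was compared with untreated skin of WT mice by RNA sequencing. The samples were chosen by the group their labels give: 2 WT tumours and 3 pieces of WT skin, 5 of the 12 libraries of the series. The mice were C57Bl6. Per the labels, the tumours came from WT animals aged over 35 weeks exposed chronically to ultraviolet light, 3 times per week at 2.5 kJ/m2. The skin was shaved, untreated dorsal skin of WT animals aged 4 weeks. The remaining 7 libraries were 4 cSCC and 3 skin from TAp63-/- mice, treated and aged in the same way. They shared the estimate of the spread and served for the test of a difference between genotypes. TAp63 stands for those p63 proteins that start with a transactivation domain. Every title holds an identifier of its own. The labels do not say that these are separate animals, so p-values measure spread between samples, which may be technical.

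Squamous cell carcinoma arises from keratinocytes, the cells that form the layers of the epidermis, and ultraviolet light is its main cause in skin. At the edge of a wound, keratinocytes give up the keratins of resting skin for Krt6 and Krt16, make small proline-rich proteins and antimicrobial peptides, and release growth factors that act on their own receptors. Carcinoma cells in addition cross the basement membrane, the sheet of laminin and collagen to which basal keratinocytes are anchored through integrins. Values were taken as FPKM, a read density per transcript length and library size. Sorted values were nearly the same in every library, so quantile normalization by the authors was inferred, and values follow ranks within a library. A change is the mean log2(FPKM + 1) of WT tumours minus that of WT skin, given ± its standard error, and it understates the change of low genes. In the results below, tumours and skin are the WT libraries unless TAp63-/- is named, and values stand in the order of their replicate numbers. "Rose" and "fell" are used for genes with an adjusted p below 0.05 in limma, a linear model fitted to all genes with moderated variances.

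Of 14752 genes tested, 1687 (11.4%) were called: 688 rose (4.66%) and 999 fell (6.77%) in the WT tumours, and 4149 had an unadjusted p below 0.05. On data simulated from the residuals of these libraries, false calls were a larger share of all calls than the threshold sets, and most of the smaller changes put in were missed. The median change over all tested genes was 0.04. Since sorted values were nearly the same in every library, a shift common to all genes could not be seen. Counts per list below stand against the shares over all tested genes, 4.66% for rises and 6.77% for falls. The lists were written with earlier results of these data known, so a high share in a list is no independent support. Both tumours lay outside the range of the 3 skin libraries for every called gene, but this also held for many genes that were not called: 27.3% of tested genes had both tumours above and 25.5% below all 3 skin libraries. The tumours differed from each other more than the skin pieces did. The median absolute difference per gene was 0.426 between both tumours and 0.159 to 0.219 between WT skin libraries, against a median absolute change of 1.53 for called genes. Xist, of the inactive X chromosome, was 21.5 and 33 FPKM in tumours and 0.00585, 0.0075 and 0.006 in skin, and the Y-linked Eif2s3y was 0.0116 and 0.0456 FPKM in tumours and 83.1, 72.3 and 99.9 in skin, so both tumours were female and all 3 skin pieces male. Tumour and skin thus cannot be told apart from sex, age, radiation and the LM and Su naming series of the titles. With sex as a covariate, which among the tumours only TAp63-/- cSCC replicate 1, a male, can inform, 255 genes were called, 171 of them among the 1687. Without WT cSCC replicate 1 the number called was 464, and without WT skin replicates 1, 2 and 3 it was 994, 752 and 748. Of the 1687, 352 kept their call and direction whichever of the 5 WT libraries was left out. Fewer cells of a type and less RNA per cell cannot be told apart in these pieces of tissue. Read depth is unknown, and a value listed at 0 need not mean absence: mt-Co1, a mitochondrial gene that every cell uses, was 21269 and 0 FPKM in tumours and 17426, 21269 and 0 in skin. Copies of near-identical sequence (Krt6a and Krt6b, the Sprr2, Stfa, Defb and Skint families) may share reads, which leaves their single values uncertain.

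Promoters of the genes that rose and fell were searched for the AP-1 element, since Fosl1, a subunit of the AP-1 transcription factor, was among the genes that rose. The letters TGAGTCA, read on both strands (TGACTCA on the other), are the core that AP-1 binds. RefSeq promoters (GRCm38.p6, 250 bases before to 50 after the gene's start) held them in 5.2% of all 32851 promoters. Counted per gene instead, with the letters in any of its promoters, the share was 5.45% of tested genes with a promoter. Among genes that rose 40 of 480 with a promoter had the letters (8.33%), and among genes that fell 44 of 682 (6.45%). These shares are a description and do not show that a factor was bound. Of 74 genes that rose and were named by the rule given with the methods, 49 had a RefSeq promoter. The 49 were counted on all chromosomes, but genes on the chromosome of Hbegf were left out of the next count. Of the rest, whose number is not given, 6 held the letters. The 250 bases before the start of 5 of them are shown 5′ to 3′ on the gene's strand, with the letters in capitals, because they belong to the proteases, the cytokine and the envelope proteins described next.
Mmp13: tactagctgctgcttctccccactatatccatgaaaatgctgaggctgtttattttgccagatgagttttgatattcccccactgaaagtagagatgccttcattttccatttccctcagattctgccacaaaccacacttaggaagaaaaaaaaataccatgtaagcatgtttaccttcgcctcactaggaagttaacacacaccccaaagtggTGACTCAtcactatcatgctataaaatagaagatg
Mmp10: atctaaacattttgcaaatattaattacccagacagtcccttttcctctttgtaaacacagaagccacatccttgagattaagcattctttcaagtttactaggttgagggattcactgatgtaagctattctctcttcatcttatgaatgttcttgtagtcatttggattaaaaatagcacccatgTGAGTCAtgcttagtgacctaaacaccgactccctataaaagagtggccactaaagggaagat
Il1a: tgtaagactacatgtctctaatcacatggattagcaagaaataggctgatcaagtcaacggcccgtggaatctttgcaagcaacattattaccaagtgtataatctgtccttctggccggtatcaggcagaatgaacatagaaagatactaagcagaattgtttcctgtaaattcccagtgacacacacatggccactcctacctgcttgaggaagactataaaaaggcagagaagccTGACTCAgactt
Sprr2d: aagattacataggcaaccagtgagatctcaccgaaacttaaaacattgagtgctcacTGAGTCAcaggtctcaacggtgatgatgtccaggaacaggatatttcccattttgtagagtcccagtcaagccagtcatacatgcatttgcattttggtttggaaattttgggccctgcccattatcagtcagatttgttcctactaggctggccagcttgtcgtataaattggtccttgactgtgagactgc
Sprr2i: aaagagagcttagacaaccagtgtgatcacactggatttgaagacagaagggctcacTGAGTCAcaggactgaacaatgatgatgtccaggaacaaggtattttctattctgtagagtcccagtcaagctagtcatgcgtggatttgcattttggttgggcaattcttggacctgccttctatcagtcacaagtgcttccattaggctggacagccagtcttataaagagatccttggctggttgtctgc
The windows lie at chr9:7272264-7272513 (plus strand) for Mmp13, chr9:7502092-7502341 (plus) for Mmp10, chr2:129309973-129310222 (minus) for Il1a, chr3:92338890-92339139 (plus) for Sprr2d and chr3:92407741-92407990 (plus) for Sprr2i. Counted back from the start, the first letter of the motif stood at -35 in Mmp13, -63 in Mmp10, -12 in Il1a and -193 in both Sprr2 genes, whose windows were identical at 174 of 250 positions without gaps. The sixth gene was Krt13, a keratin of moist mucosa, with the letters at -183 and -34.

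Keratins and envelope proteins of the wound edge led the rises in WT tumours. Krt6b (ENSMUSG00000023041, chromosome 15, 101676034 to 101680289), a keratin that skin makes after injury, was 1969 and 11167 FPKM in tumours and 22.5, 9.07 and 3.45 in skin (log2 change 8.85 ± 0.84, adjusted p = 0.00029). Its partner Krt16 (ENSMUSG00000053797, chromosome 11, 100246091 to 100248902) was 1085 and 3493 FPKM in tumours and 27.3, 13.2 and 6.73 in skin (log2 change 7.06 ± 0.69, adjusted p = 0.000309). In both tumours each keratin stood far above every skin library, and tumour replicate 2 was the higher. Small proline-rich proteins are cross-linked into the envelope of hardening keratinocytes. Sprr2i (ENSMUSG00000042157, chromosome 3, 92407991 to 92409271) was 177 and 886 FPKM in tumours and 0.454, 0.739 and 0.261 in skin (log2 change 8.08 ± 1.20, adjusted p = 0.00249). Sprr1b was 2748 and 4268 FPKM in tumours and 54.8, 18.3 and 3.61 in skin (log2 change 7.65 ± 1.16, adjusted p = 0.00273). Sprr2d was 552 and 338 FPKM in tumours and 2.06, 2.41 and 2.3 in skin (log2 change 7.06 ± 1.30, adjusted p = 0.007). Whereas Sprr2i was higher in replicate 2, Sprr2d was higher in replicate 1. Stfa2, a stefin that blocks cysteine proteases, was 110.3 and 957 FPKM in tumours and 4.74, 2.98 and 0.495 in skin (log2 change 6.65 ± 0.87, adjusted p = 0.00125). Fosl1 (ENSMUSG00000024912, chromosome 19, 5447703 to 5455945) had close values in both tumours, 18.3 and 16.5 FPKM in tumours and 0.651, 0.538 and 0.448 in skin (log2 change 3.57 ± 0.29, adjusted p = 0.000184). Of the 19 tested genes of the wound-edge list, which was written with earlier results of these data known, 14 rose and 0 fell. The median change of the 19 was 5.32. The 5 that did not pass were Krt17, Sprr1a, Sprr3, Stfa3 and Gjb2, and all 5 had a mean change above 0. Krt17, which follicles of resting skin also make, was 474 and 1847 FPKM in tumours and 946, 675 and 477 in skin (log2 change 0.48, adjusted p = 0.644). In families grouped after the values were seen, 10 of 16 tested Sprr genes and 3 of 4 Stfa genes rose. Envelope genes of the Lce3 family, which injury induces, rose in 4 of 4 cases, while of the 14 Lce1 genes of resting epidermis 0 rose and 1 fell. Over all tested genes 4.66% rose and 6.77% fell. Lce3c was 109 and 209 FPKM in tumours and 0.446, 0.789 and 0.459 in skin (log2 change 6.61 ± 0.53, adjusted p = 0.000184). The call was lost without WT cSCC replicate 1 for Sprr2d (adjusted p = 0.07). Under the sex covariate, 9 of the 14 wound-edge genes kept their call and Sprr3 gained one. Sprr1b and Stfa2 lost theirs (adjusted p = 0.0509 and 0.0508). Without WT cSCC replicate 1, 9 kept their call.

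**Figure D1:**
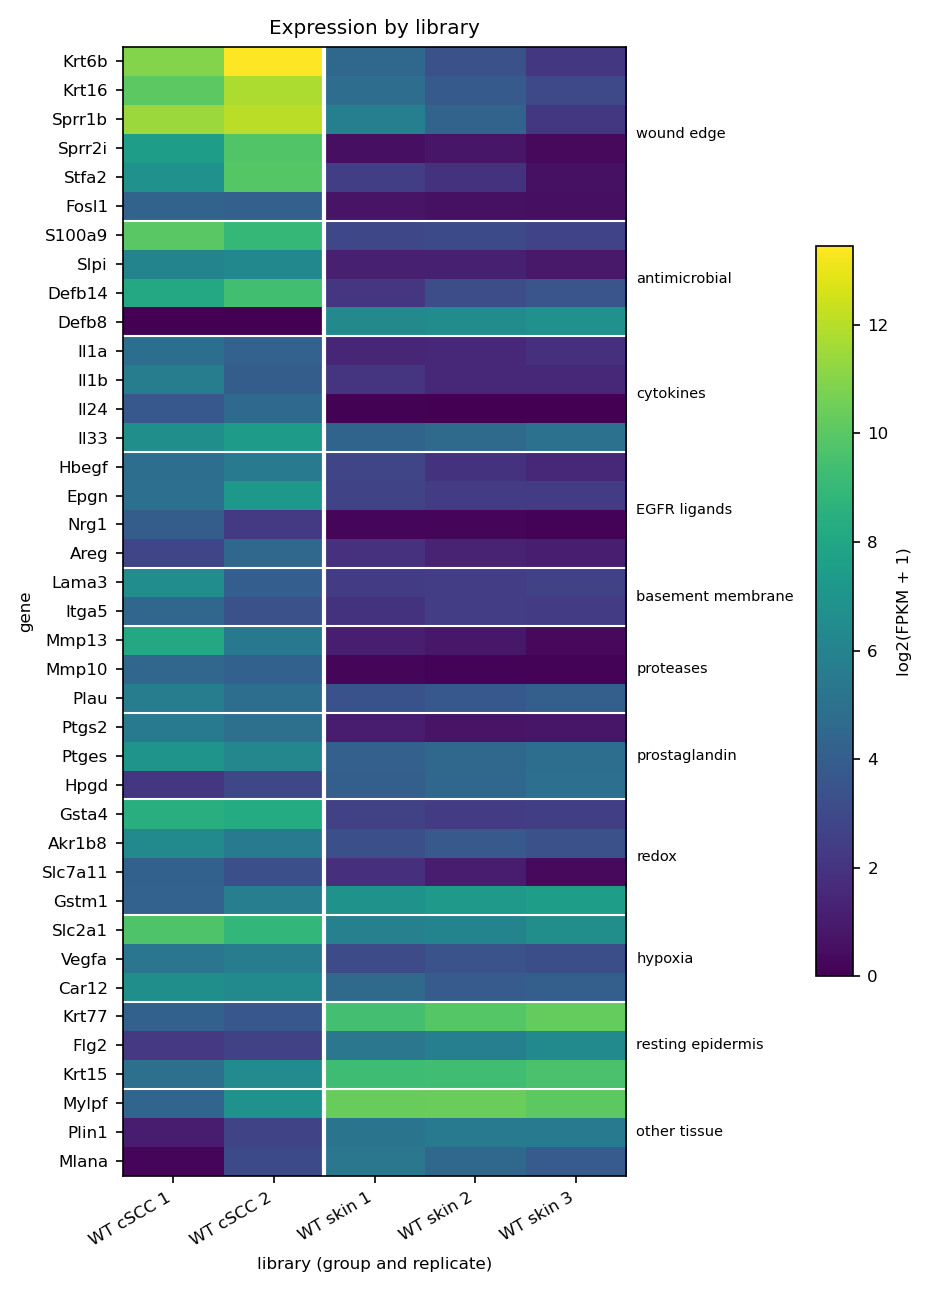
Values of 39 genes (rows, grouped by list at the right) in the 2 WT tumours and 3 WT skin libraries (columns), coloured by log2(FPKM + 1) from dark (0) to bright. Krt6b is the brightest row in tumour replicate 2 (11167 FPKM), Defb8 is at 0 in both tumours, and Mmp13 is brighter in tumour replicate 1 than in replicate 2.

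The layers of resting epidermis changed in a few members. Krt77 (ENSMUSG00000067594, chromosome 15, 101858732 to 101869705), a keratin of upper layers and sweat ducts, was 16.9 and 11.7 FPKM in tumours and 681, 946 and 1231 in skin (log2 change -5.94 ± 0.82, adjusted p = 0.00167). Flg2, a relative of filaggrin in the cornified layer, was 3.63 and 5.22 FPKM in tumours and 40.004, 54 and 82.5 in skin (log2 change -3.42 ± 0.48, adjusted p = 0.00179). Both were lower in each tumour than in every skin library by a wide margin. Rptn, another envelope matrix protein, went the other way, at 43.9 and 178 FPKM in tumours and 7.76, 6.85 and 6.45 in skin (log2 change 3.49 ± 0.84, adjusted p = 0.0234). The remaining 14 of 17 did not pass. Krt10, the main suprabasal keratin, was 846 and 2062 FPKM in tumours and 1620.2, 2229.7 and 3696 in skin (log2 change -0.84, adjusted p = 0.522). Its partner Krt1 was 1158 and 3855 FPKM in tumours and 378, 573 and 817 in skin (log2 change 1.91, adjusted p = 0.101), with the groups overlapping for Krt10 and both tumours above skin for Krt1. In the basal layer Krt14 was 4969.8 and 14287 FPKM in tumours and 1209.7, 977 and 862 in skin (log2 change 3.06 ± 0.52, adjusted p = 0.00467). Krt15, a basal and follicle stem cell keratin, was 30.3 and 89.97 FPKM in tumours and 608, 633 and 761 in skin (log2 change -3.64 ± 0.53, adjusted p = 0.00211). Krt5, the partner of Krt14, was 3085 and 3085 FPKM in tumours and 1969, 1883 and 1969 in skin and was not called (adjusted p = 0.118). Trp63, whose product keeps the basal layer, was 141 and 97.3 FPKM in tumours and 113, 100.4 and 119 in skin (log2 change 0.08, adjusted p = 0.904).

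Keratins of simple and moist epithelia gave 1 rise and 2 falls among 7 tested. Krt13 was 1.82 and 14.8 FPKM in the tumours and listed at 0 in all 3 skin libraries (adjusted p = 0.0435). Krt80 was 24.6 and 74.6 FPKM in tumours and 145, 164 and 197 in skin (log2 change -1.94, adjusted p = 0.022). Krt23 was 7.68 and 27.5 FPKM in tumours and 64, 66.6 and 68.7 in skin (log2 change -2.10, adjusted p = 0.0331). Among 21 junction genes, 2 desmosomal cadherins rose and a tight junction protein fell, where 11.4% of all tested genes were called. Dsc2 was 41 and 64.5 FPKM in tumours and 5.72, 3.29 and 2.7 in skin (log2 change 3.47 ± 0.48, adjusted p = 0.00172). Dsg3 was 159 and 99.5 FPKM in tumours and 46.7, 34.6 and 32.3 in skin (log2 change 1.72 ± 0.31, adjusted p = 0.0059). Ocln (occludin) was 1.69 and 4.32 FPKM in tumours and 12.6, 10.3 and 9.97 in skin (log2 change -1.65 ± 0.32, adjusted p = 0.00847). The other 18 junction genes did not pass. Leaving out libraries ended the call without WT cSCC replicate 1 for Dsg3 and Ocln (adjusted p = 0.0742 to 0.094), and for Rptn, Krt13, Krt80 and Krt23 in more than 1 of the fits without WT cSCC replicate 1 or 2 or WT skin replicate 1, 2 or 3 (adjusted p = 0.0547 to 0.3). Once sex was included, none of the differentiation, keratin and basal genes named in this and the preceding paragraph was called, and of the junction genes Dsc2 was (adjusted p = 0.032).

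Of 15 tested antimicrobial genes 9 rose, 1 fell and 5 did not pass, with a median change of 2.42. Slpi (ENSMUSG00000017002, chromosome 2, 164354070 to 164389095), an inhibitor of neutrophil elastase, was 66.4 and 75.4 FPKM in tumours and 1.27, 1.31 and 0.891 in skin (log2 change 5.06 ± 0.51, adjusted p = 0.000375). Defb14, a beta-defensin, was 275 and 654 FPKM in tumours and 3.39, 8.15 and 10.5 in skin (log2 change 5.78 ± 0.98, adjusted p = 0.00475). Defb4 was 18.5 and 104 FPKM in tumours and 2.24, 0.249 and 0 in skin (log2 change 4.82 ± 0.76, adjusted p = 0.00332). S100a9, a subunit of the calcium-binding protein calprotectin, was 1032 and 498 FPKM in tumours and 6.65, 7.24 and 5.63 in skin (log2 change 6.58 ± 1.34, adjusted p = 0.011). Its partner S100a8 was 1426 and 1101 FPKM in tumours and 38.5, 29.1 and 9.52 in skin (log2 change 5.76, adjusted p = 0.0294). All of these were above skin in both tumours, with the defensins higher in replicate 2 and S100a9 in replicate 1. Defb8 (ENSMUSG00000031471, chromosome 8, 19445769 to 19447606), another beta-defensin, was listed at 0 in both tumours and was 78.7, 88.1 and 109.8 FPKM in skin (log2 change -6.53 ± 0.50, adjusted p = 0.000141). Hamp2, a hepcidin gene that is no member of the list, was likewise listed at 0 in both tumours against 14.8, 42.9 and 74.3 FPKM (log2 change -5.22 ± 0.82, adjusted p = 0.00316). The call ended without WT cSCC replicate 1 for S100a9 (adjusted p = 0.101), and for S100a8 in more than 1 of the fits without WT cSCC replicate 1 or 2 or WT skin replicate 1, 2 or 3 (adjusted p = 0.0535 to 0.162). Of the 9 antimicrobial genes that rose, 4 kept their call without WT cSCC replicate 1. With sex as a covariate 4 kept it and Lcn2 gained one, while Defb14, Defb4 and Hamp2 lost theirs (adjusted p = 0.156, 0.0518 and 0.148).

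In a list of cytokines and receptors, mainly of the interleukin-1, interleukin-17 and interleukin-20 families, 6 of 20 tested genes rose and 0 fell. Il1a (ENSMUSG00000027399, chromosome 2, 129299610 to 129309972), an alarm cytokine that keratinocytes store and release on damage, was 27.9 and 17.4 FPKM in tumours and 1.7, 1.93 and 2.47 in skin (log2 change 2.94 ± 0.31, adjusted p = 0.00044). Il24, of the interleukin-20 family, was 12 and 23 FPKM in tumours and 0.0523, 0 and 0 in skin (log2 change 4.12 ± 0.51, adjusted p = 0.00106). Il33, another alarm cytokine, was 102 and 174 FPKM in tumours and 19, 24 and 33 in skin (log2 change 2.39 ± 0.42, adjusted p = 0.00555). Il1b, which myeloid cells make, was 48.9 and 14.6 FPKM in tumours and 3.08, 1.85 and 1.96 in skin (log2 change 3.10 ± 0.73, adjusted p = 0.0212). Both tumours were above all skin libraries for each of these, with Il1b higher in replicate 1 and Il24 and Il33 in replicate 2. The receptor Il1r1 was 6.62 and 12.8 FPKM in tumours and 9.61, 10.8 and 11.7 in skin (log2 change -0.19, adjusted p = 0.736). Il1rn, which blocks that receptor, was 89 and 66 FPKM in tumours and 57.6, 58.7 and 54.3 in skin (log2 change 0.43, adjusted p = 0.726). In the prostaglandin pathway, Ptgs2 (cyclooxygenase-2), which starts the synthesis, was 43.9 and 30.7 FPKM in tumours and 1.03, 0.625 and 0.753 in skin (log2 change 4.39 ± 0.98, adjusted p = 0.0171). Ptges, the enzyme that makes prostaglandin E2, was 125 and 73.9 FPKM in tumours and 16.3, 22.2 and 27.6 in skin (log2 change 2.10 ± 0.32, adjusted p = 0.00303). Hpgd, which inactivates prostaglandin E2, was 3.31 and 6.57 FPKM in tumours and 16.1, 21.6 and 29 in skin (log2 change -1.99 ± 0.42, adjusted p = 0.013). Both enzymes of synthesis were thus higher and the enzyme of breakdown lower in each tumour than in every skin piece. The other 13 of 16 genes of that list did not pass. Calls were lost for Il1b, Ptgs2 and Hpgd in more than 1 of the fits without WT cSCC replicate 1 or WT skin replicate 2 or 3 (adjusted p = 0.0546 to 0.202). With sex in the fit, Il1a was called (adjusted p = 0.015) and the other 6 genes with a test in this paragraph that rose or fell were not.

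Of 8 tested ligands of the EGF receptor family 6 rose, and no tested receptor did. Hbegf (ENSMUSG00000024486, chromosome 18, 36504929 to 36515805), a ligand that is shed from the cell surface, was 27.7 and 46.8 FPKM in tumours and 6.14, 2.97 and 1.86 in skin (log2 change 3.10 ± 0.41, adjusted p = 0.00135). Epgn (epigen) was 28.9 and 143 FPKM in tumours and 5.84, 4.3 and 3.98 in skin (log2 change 3.54 ± 0.64, adjusted p = 0.00646). Nrg1 (neuregulin 1), a ligand of Erbb3 and Erbb4, was 14.8 and 3.85 FPKM in tumours and 0.139, 0.17 and 0.101 in skin (log2 change 2.95 ± 0.50, adjusted p = 0.0049). Areg (amphiregulin) was 5.98 and 22.1 FPKM in tumours and 2.83, 1.57 and 1.21 in skin (log2 change 2.18 ± 0.51, adjusted p = 0.0215). Each ligand was above skin in both tumours, and Nrg1 was the one with its higher value in replicate 1. Tgfa rose by 1.70 and Ereg by 1.27 on the log2 scale (adjusted p = 0.0275 and 0.0421). On the receptor side, Egfr was 30.02 and 19.1 FPKM in tumours and 54.5, 33.1 and 59 in skin (log2 change -0.95, adjusted p = 0.176). Erbb2 was 13.4 and 15.6 FPKM in tumours and 20.1, 20.9 and 19.2 in skin (log2 change -0.45, adjusted p = 0.115). Erbb3 was 11.1 and 16.6 FPKM in tumours and 19.98, 19.1 and 19.6 in skin (log2 change -0.49, adjusted p = 0.35). All 3 receptors were lower in both tumours than in every skin library, and none passed the test. Over the list, 6 of 13 tested genes rose and 0 fell. The call was not kept without WT cSCC replicate 1 for Nrg1 (adjusted p = 0.0561), and for Areg, Tgfa and Ereg in more than 1 of the fits without WT cSCC replicate 1 or 2 or WT skin replicate 1, 2 or 3 (adjusted p = 0.0657 to 0.206). Adjusting for sex, Hbegf was called (adjusted p = 0.0303) and the other 5 ligands were not.

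**Figure D2:**
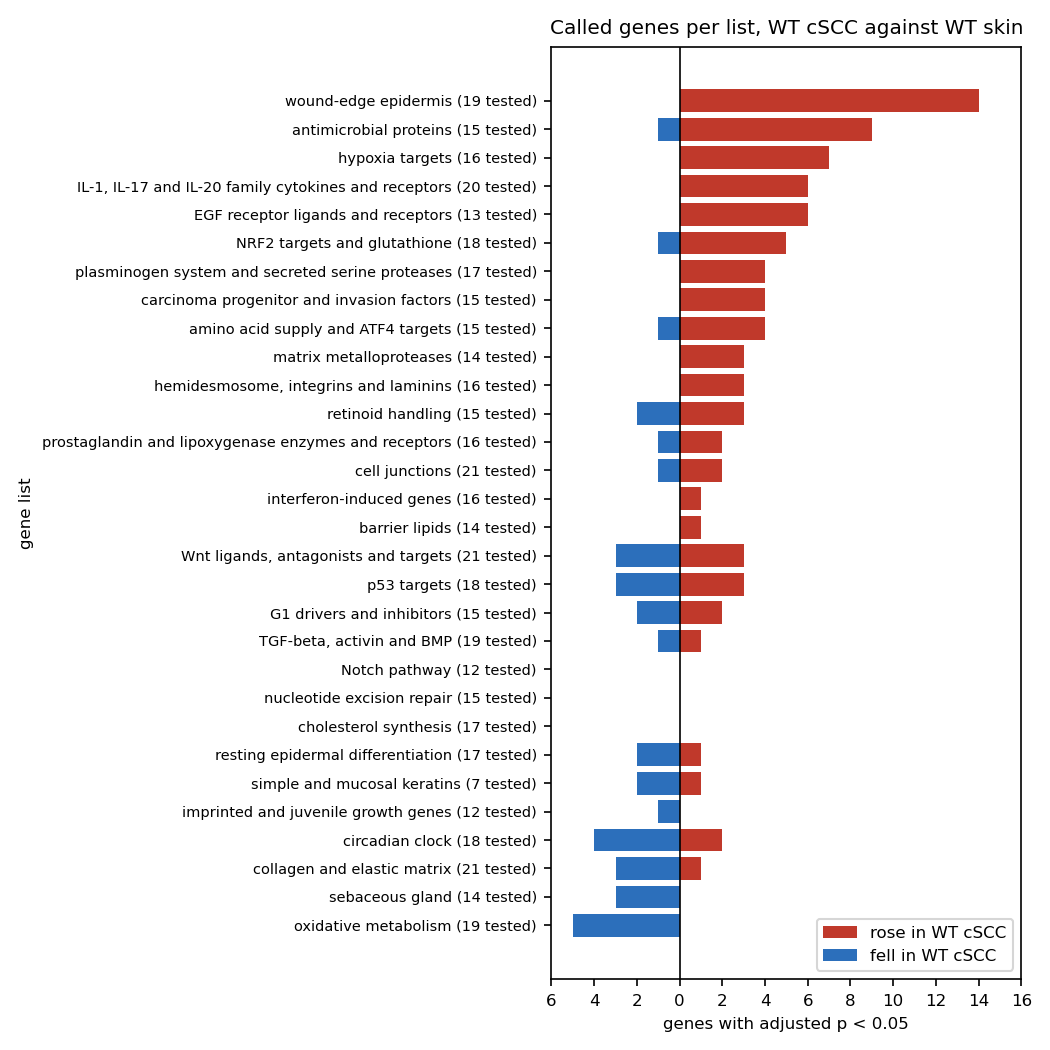
Number of genes of each of the 30 pathway lists that rose (red, to the right) or fell (blue, to the left) in WT cSCC against WT skin; the number tested is given in brackets. Wound-edge epidermis has 14 rises and 0 falls, oxidative metabolism 0 and 5, and 3 lists (Notch pathway, nucleotide excision repair, cholesterol synthesis) have no called gene.

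The anchoring apparatus of basal cells rose in 3 of 16 genes, and these calls rested on tumour replicate 1. Lama3, the alpha chain of laminin-332, was 96 and 15.3 FPKM in tumours and 4.23, 4.49 and 5.19 in skin (log2 change 2.82 ± 0.63, adjusted p = 0.0175). Lamb3, its beta chain, was 282 and 36.9 FPKM in tumours and 16.5, 18.3 and 25.7 in skin (log2 change 2.31, adjusted p = 0.064). Itga5, the fibronectin receptor subunit, was 20.9 and 9.15 FPKM in tumours and 2.86, 4.53 and 4.08 in skin (log2 change 1.65 ± 0.34, adjusted p = 0.0114). The hemidesmosome integrins did not pass. Itga6 was 295 and 94.2 FPKM in tumours and 46.3, 51.6 and 62.6 in skin (log2 change 1.63, adjusted p = 0.0581). Itgb4 was 81.9 and 34.4 FPKM in tumours and 18.4, 19.8 and 24.1 in skin (log2 change 1.32, adjusted p = 0.0545). In each of these 5 genes both tumours lay above skin and replicate 1 was the higher. With sex as a covariate none of the 3 kept its call, and Itgav gained one. When WT skin replicate 1, 2 or 3 was left out, 2 of the 16 rose each time. Without WT cSCC replicate 1 none of the 16 was called, and without WT cSCC replicate 2 it was 8.

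Factors and enzymes linked to invasion rose in part. Pitx1, a homeobox transcription factor, was 13.1 and 12.8 FPKM in tumours and 0.127, 0.118 and 0.186 in skin (log2 change 3.61 ± 0.74, adjusted p = 0.0113). Cd44, the hyaluronan receptor, was 424 and 155 FPKM in tumours and 59.7, 75.7 and 56.2 in skin (log2 change 2.0 ± 0.42, adjusted p = 0.0122). Snai2 (Slug), a repressor of epithelial genes, was 53.8 and 33 FPKM in tumours and 18.2, 18.8 and 17.4 in skin (log2 change 1.18 ± 0.29, adjusted p = 0.026). Of 15 genes of that list 4 rose, with Tnc (tenascin C) as the fourth at 59.9 and 39.2 FPKM in tumours and 10.2, 6.25 and 2.11 in skin (log2 change 2.97, adjusted p = 0.028). The collagenase Mmp13 (ENSMUSG00000050578, chromosome 9, 7272514 to 7283333) was 279 and 42.8 FPKM in tumours and 1.21, 0.814 and 0.282 in skin (log2 change 6.0 ± 1.11, adjusted p = 0.00713). The stromelysin Mmp10 was 20.6 and 17 FPKM in tumours and 0.146, 0.0766 and 0.108 in skin (log2 change 4.15 ± 0.88, adjusted p = 0.0135). Timp1, an inhibitor of such enzymes, was 60.7 and 46.3 FPKM in tumours and 8.78, 12.7 and 7.42 in skin (log2 change 2.37 ± 0.62, adjusted p = 0.0324). Those 3 were the called genes among 14. Mmp9, a gelatinase, was 89.1 and 12.1 FPKM in tumours and 2.99, 3.57 and 4.57 in skin (log2 change 2.88, adjusted p = 0.115), with both tumours above skin and a wide gap between them. In the plasminogen system Plau (urokinase), which activates plasmin, was 50.5 and 28.4 FPKM in tumours and 9.59, 11.8 and 15.8 in skin (log2 change 1.56 ± 0.40, adjusted p = 0.0291). Of the kallikrein proteases, Klk8 was 47 and 123 FPKM in tumours and 8.91, 12.7 and 14.2 in skin (log2 change 2.60, adjusted p = 0.0122). Klk13 was 49.9 and 84.6 FPKM in tumours and 1.24, 3.1 and 1.18 in skin (log2 change 4.60, adjusted p = 0.025). Of the 17 tested genes of this list 4 rose.

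In the dermal matrix list 3 genes fell and 1 rose. Dcn (decorin), a small proteoglycan, was 59 and 168 FPKM in tumours and 654, 846 and 1050.3 in skin (log2 change -3.05 ± 0.51, adjusted p = 0.00446). Lum (lumican), another proteoglycan, was 36.9 and 78.9 FPKM in tumours and 180.5, 266 and 299 in skin (log2 change -2.15, adjusted p = 0.0347). Dpt (dermatopontin), a matrix protein, was 12.2 and 64.8 FPKM in tumours and 139.8, 204 and 220.3 in skin (log2 change -2.66, adjusted p = 0.0252). Col12a1, a collagen at the surface of fibrils, was 93.4 and 55.6 FPKM in tumours and 13.4, 15.5 and 6.64 in skin (log2 change 2.58, adjusted p = 0.0318). The other 17 of 21 genes did not pass. Among invasion, protease and matrix genes the call was lost without WT cSCC replicate 1 for Pitx1, Cd44, Mmp13, Mmp10 and Dcn (adjusted p = 0.0555 to 0.125), and without WT cSCC replicate 2 for Klk8 (adjusted p = 0.0697), and for Snai2, Tnc, Timp1, Plau, Klk13, Lum, Dpt and Col12a1 in more than 1 of the fits without WT cSCC replicate 1 or 2 or WT skin replicate 1, 2 or 3 (adjusted p = 0.05 to 0.266). When sex was added, Pitx1 (adjusted p = 0.0356) and Klk13 (adjusted p = 0.0394) were called, and the other 12 of these genes were not.

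Gsta4 had the smallest p of all tested genes. Gsta4 (ENSMUSG00000032348, chromosome 9, 78191966 to 78209348) encodes a glutathione transferase that detoxifies 4-hydroxynonenal, a product of lipid peroxidation, and was 361 and 304 FPKM in tumours and 5.08, 4.13 and 4.74 in skin (log2 change 5.88 ± 0.29, adjusted p = 7.51e-06). Both tumours were close to each other and far above a narrow range in skin, and the call was kept without each of the 5 WT libraries in turn and with sex as a covariate (adjusted p = 0.00051). It is a target of NRF2, the factor that answers to oxidants. Further genes of that list rose: Akr1b8, an aldehyde reductase, was 85 and 47.3 FPKM in tumours and 8.76, 12.6 and 8.93 in skin (log2 change 2.55 ± 0.31, adjusted p = 0.000959). Slc7a11, which imports cystine for glutathione synthesis, was 17 and 8.58 FPKM in tumours and 2.6, 1.02 and 0.25 in skin (log2 change 2.65 ± 0.55, adjusted p = 0.0122). Hmox1 (heme oxygenase 1) was 96.1 and 258 FPKM in tumours and 41, 46.4 and 42 in skin (log2 change 1.85, adjusted p = 0.0272). Gpx2, a glutathione peroxidase, was 293 and 66.8 FPKM in tumours and 34.8, 13.8 and 6.67 in skin (log2 change 3.14, adjusted p = 0.044). Gstm1, a transferase of another class, fell (17.8 and 52.4 FPKM in tumours and 114, 153 and 187 in skin; log2 change -2.24, adjusted p = 0.0269). Nqo1, a standard NRF2 target, was 18.3 and 22.3 FPKM in tumours and 6.8, 5.75 and 5.51 in skin and did not pass (adjusted p = 0.0888). In all, 5 of 18 rose and 1 fell. Other NRF2-list calls were lost without WT cSCC replicate 1 for Slc7a11 (adjusted p = 0.125), and for Hmox1, Gpx2 and Gstm1 in more than 1 of the fits without WT cSCC replicate 1 or 2 or WT skin replicate 1, 2 or 3 (adjusted p = 0.0679 to 0.339). With sex as a covariate, Gsta4 kept its call and Nqo1 gained one (adjusted p = 0.00867), while Akr1b8, Slc7a11, Hmox1, Gpx2 and Gstm1 lost theirs (adjusted p = 0.0557 to 0.224).

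Genes of glucose use and low oxygen rose in 7 of 16 cases. Slc2a1 (ENSMUSG00000028645, chromosome 4, 119108711 to 119137330), the glucose transporter GLUT1, was 862 and 477 FPKM in tumours and 57.1, 66.8 and 98.3 in skin (log2 change 3.13 ± 0.48, adjusted p = 0.00299). Vegfa, the growth factor of blood vessels, was 37.8 and 50.03 FPKM in tumours and 7.75, 9.75 and 8.45 in skin (log2 change 2.21 ± 0.29, adjusted p = 0.00132). Car12, a carbonic anhydrase, was 101 and 86.1 FPKM in tumours and 24.2, 13.5 and 16 in skin (log2 change 2.36 ± 0.54, adjusted p = 0.0193). The glycolytic enzymes Pgk1 and Ldha rose by 1.13 and 1.21 on the log2 scale (adjusted p = 0.0304 and 0.0418). Of 14 endothelial markers limma called 0, and 4 had an unadjusted p below 0.05. Among genes of amino acid supply Asns (asparagine synthetase) was 23.7 and 24.6 FPKM in tumours and 9.75, 10.4 and 8.71 in skin (log2 change 1.25 ± 0.23, adjusted p = 0.0073). Shmt2, a mitochondrial enzyme of serine use, was 53 and 38.3 FPKM in tumours and 21.7, 19.9 and 17.1 in skin (log2 change 1.17, adjusted p = 0.0273). Trib3 was 7.77 and 21.9 FPKM in tumours and 3.94, 1.6 and 2.73 in skin (log2 change 1.96, adjusted p = 0.0223). Psat1, of serine synthesis, was 51.7 and 58.2 FPKM in tumours and 20.4, 25.7 and 24.1 in skin (log2 change 1.20, adjusted p = 0.0334). Atf3, a stress-induced factor, was 3.34 and 3.3 FPKM in tumours and 33.7, 20.5 and 10.7 in skin (log2 change -2.25 ± 0.44, adjusted p = 0.00891) and fell, so 4 of 15 rose and 1 fell. In oxidative metabolism 5 of 19 genes fell and 0 rose. Cox7a1, Cox8b and Cox6a2 are muscle forms of cytochrome oxidase subunits, and Ckmt2 is the creatine kinase of muscle mitochondria. Cox7a1 was 3.36 and 11.9 FPKM in tumours and 101, 122 and 119 in skin (log2 change -3.93 ± 0.66, adjusted p = 0.00462). Cox8b was 4.95 and 31.1 FPKM in tumours and 232, 301 and 209 in skin (log2 change -4.15, adjusted p = 0.00498). Cox6a2 was 10.1 and 55.4 FPKM in tumours and 361, 413 and 375 in skin (log2 change -3.94, adjusted p = 0.0174). Skeletal muscle markers fell too, with a mean log2(FPKM + 1) of 2.94 and 5.14 in the tumours and 8.12 to 8.35 in skin, and their part in these falls was not tested. Sdhb, which all tissues use, was 39.1 and 35.6 FPKM in tumours and 83.8, 77.2 and 57.8 in skin (log2 change -0.93, adjusted p = 0.0226). Metabolic calls were lost without WT cSCC replicate 1 for Asns, Atf3, Cox7a1 and Cox8b (adjusted p = 0.0537 to 0.07), and for Car12, Pgk1, Ldha, Shmt2, Trib3, Psat1, Cox6a2, Ckmt2 and Sdhb in more than 1 of the fits without WT cSCC replicate 1 or 2 or WT skin replicate 1, 2 or 3 (adjusted p = 0.0535 to 0.316). Under the sex covariate, Vegfa was called (adjusted p = 0.0446) and the other 14 of these genes were not.

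Sebaceous gland genes fell in 3 of 14 cases, against 6.77% of all tested genes. Awat2, which makes wax esters, was 1.44 and 5.12 FPKM in tumours and 12.8, 26.6 and 26.2 in skin (log2 change -2.49 ± 0.46, adjusted p = 0.00703). Scd3, a fatty acid desaturase of that gland, was 1.93 and 11.1 FPKM in tumours and 39.6, 105 and 105 in skin (log2 change -3.69, adjusted p = 0.0174). Dgat2 was 13.8 and 41 FPKM in tumours and 62.7, 93.4 and 92.9 in skin (log2 change -1.73, adjusted p = 0.0477). In limma cholesterol synthesis gave 0 called genes of 17 and 0 with an unadjusted p below 0.05, with a median change of -0.13. In barrier lipid synthesis, Degs2, a ceramide enzyme, rose (14.8 and 43.3 FPKM in tumours and 1.98, 2.39 and 1.32 in skin; log2 change 3.21 ± 0.54, adjusted p = 0.00475) and 13 of 14 did not pass. Of 15 retinoid genes 3 rose and 2 fell. Aldh1a1, which makes retinoic acid, was 0.613 and 2.56 FPKM in tumours and 14.9, 14 and 19.3 in skin (log2 change -2.82 ± 0.47, adjusted p = 0.0046). Rdh10, of the step before it, was 8.53 and 5.92 FPKM in tumours and 2.85, 2.48 and 2.46 in skin (log2 change 1.18 ± 0.23, adjusted p = 0.0101). Of 18 clock genes 2 rose and 4 fell. The output factor Dbp was 3.35 and 2.15 FPKM in tumours and 12.7, 9.8 and 16.6 in skin (log2 change -1.89 ± 0.41, adjusted p = 0.0155). Cry2 was 3.13 and 3.34 FPKM in tumours and 8.55, 8.19 and 10.3 in skin (log2 change -1.23, adjusted p = 0.0318). Clock was 17.6 and 15.2 FPKM in tumours and 7.18, 8.95 and 10.5 in skin (log2 change 0.83, adjusted p = 0.0405). The hour of collection is not given in the labels. Of 12 imprinted genes, which are most active in young animals, Ndn fell (1.3 and 2.97 FPKM in tumours and 6.52, 6.52 and 9.99 in skin; log2 change -1.50 ± 0.27, adjusted p = 0.00667), and H19, 9.2 and 18.9 FPKM in tumours and 67.1, 91.3 and 81.1 in skin, did not pass (adjusted p = 0.154). Leaving out 1 library ended the call without WT cSCC replicate 1 for Awat2, Aldh1a1, Rdh10 and Ndn (adjusted p = 0.0602 to 0.108), and for Scd3, Dgat2, Dbp, Cry2 and Clock in more than 1 of the fits without WT cSCC replicate 1 or 2 or WT skin replicate 1, 2 or 3 (adjusted p = 0.0618 to 0.387). None of these called genes kept its call with sex as a covariate, where their adjusted p ran from 0.076 to 0.513.

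Genes of tumour suppression changed in a few members each. Trp53, which ultraviolet light often mutates in this cancer, was 93.7 and 58.1 FPKM in tumours and 48.9, 52.7 and 43.7 in skin (log2 change 0.60, adjusted p = 0.278). Trp73 was 16.8 and 4.14 FPKM in tumours and 5.27, 6.65 and 7.33 in skin (log2 change 0.38, adjusted p = 0.681). Of 18 p53 targets 3 rose and 3 fell, against 4.66% and 6.77% of all tested genes. Pmaip1 (Noxa), which promotes cell death, was 17.3 and 13.5 FPKM in tumours and 2.11, 1.7 and 1.95 in skin (log2 change 2.48 ± 0.39, adjusted p = 0.0034). Tnfrsf10b, a death receptor, was 6.37 and 3.99 FPKM in tumours and 1.68, 1.65 and 1.32 in skin (log2 change 1.25 ± 0.21, adjusted p = 0.00435). Ccng1 was 23.5 and 29.3 FPKM in tumours and 59.9, 67.8 and 67 in skin (log2 change -1.27 ± 0.25, adjusted p = 0.00924) and fell, together with Eda2r and Sesn1. Cdkn1a (p21) was 61.6 and 142 FPKM in tumours and 121, 123 and 95.3 in skin (log2 change -0.26, adjusted p = 0.618), and its values in both tumours spanned those in skin. Nucleotide excision repair, which removes ultraviolet lesions, had 0 called genes of 15 in limma, 2 with an unadjusted p below 0.05 and a median change of 0.10. Cdkn2a, the gene of p16 and p19ARF, was 93.6 and 28.2 FPKM in tumours and 1.79, 5.37 and 8.7 in skin (log2 change 3.24 ± 0.59, adjusted p = 0.00689). Ccne1 (cyclin E1) was 8.96 and 8.89 FPKM in tumours and 2.29, 2.8 and 0.91 in skin (log2 change 1.79, adjusted p = 0.0269). Cdkn2c (p18) was 5.93 and 8.89 FPKM in tumours and 22.1, 24.4 and 32.8 in skin (log2 change -1.71 ± 0.33, adjusted p = 0.00821), so that 2 of 15 genes of the first gap phase rose and 2 fell, Mycn being the other. Within these lists the call was lost without WT cSCC replicate 1 for Ccng1, Cdkn2a and Cdkn2c (adjusted p = 0.0865 to 0.0936), and for Ccne1, Eda2r, Sesn1 and Mycn in more than 1 of the fits without WT cSCC replicate 1 or 2 or WT skin replicate 1, 2 or 3 (adjusted p = 0.0533 to 0.296). Once sex was included, 0 p53 targets and, of the first gap phase list, 1 gene were called.

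Among Wnt genes 3 of 21 rose and 3 fell, against 4.66% and 6.77% of all tested genes. The ligand Wnt5a was 37.5 and 55 FPKM in tumours and 16.7, 16.2 and 9.72 in skin (log2 change 1.65, adjusted p = 0.0235). Lgr5, a receptor of follicle stem cells, was 1.53 and 5.15 FPKM in tumours and 16.3, 13.1 and 10.8 in skin (log2 change -1.85 ± 0.35, adjusted p = 0.00805). Axin2, a target and brake of the pathway, was 4.63 and 3.83 FPKM in tumours and 11.3, 11.6 and 13.6 in skin (log2 change -1.33, adjusted p = 0.0282). In the TGF-beta list, Inhba, the subunit of activin A, was 15.4 and 5.83 FPKM in tumours and 2.29, 1.27 and 1.63 in skin (log2 change 1.97, adjusted p = 0.046). Bmp4 was 0.998 and 4.87 FPKM in tumours and 9.12, 8.8 and 8.42 in skin (log2 change -1.51, adjusted p = 0.0353), the 2 called genes of 19. None of 12 Notch genes was called in limma, and 2 had an unadjusted p below 0.05. The target Hes1 was 64.9 and 67.9 FPKM in tumours and 71.7, 57.4 and 66.1 in skin (adjusted p = 0.943), with the tumours inside the range of skin. Of 16 interferon-induced genes Oas1a rose (4.4 and 10.6 FPKM in tumours and 1.18, 1.13 and 1.66 in skin; log2 change 1.78, adjusted p = 0.0406) and 15 did not pass. Signalling calls were lost without WT cSCC replicate 1 for Lgr5 (adjusted p = 0.0791), and for Wnt5a, Axin2, Inhba, Bmp4 and Oas1a in more than 1 of the fits without WT cSCC replicate 1 or 2 or WT skin replicate 1, 2 or 3 (adjusted p = 0.0536 to 0.34). No gene of the Wnt, TGF-beta or interferon lists was called with sex as a covariate.

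Markers of skeletal muscle, fat cells, melanocytes and Schwann cells were lower in the tumours. Endothelial markers had a mean log2(FPKM + 1) of 2.86 and 2.84 in the tumours and 2.47 to 2.88 in skin. The mean of pericytes and smooth muscle was also lower, at 3.41 and 3.58 in the tumours and 3.955 to 4.24 in skin, and 2 of 9 genes fell. The mean of the Langerhans and dendritic cell list was 3.02 and 3.64 in the tumours and 3.77 to 4.39 in skin. Of its 10 tested genes 1 fell, and by mean change 7 were lower and 3 higher, called or not. The largest block was skeletal muscle, of the thin muscle sheet under mouse skin, where 11 of 13 tested genes fell. Mylpf, a myosin light chain, was 20.3 and 115 FPKM in tumours and 1269, 1319.7 and 1085 in skin (log2 change -4.62 ± 0.73, adjusted p = 0.00346). Ryr1, the calcium channel of muscle, was 1.69 and 3.98 FPKM in tumours and 38.4, 42.2 and 40.5 in skin (log2 change -3.50 ± 0.35, adjusted p = 0.000379). Fat cell genes fell in 3 of 11 cases, melanocyte genes in 2 of 8 and Schwann cell genes in 5 of 6. Plin1, of the coat of fat droplets, was 1.03 and 5.76 FPKM in tumours and 35, 43.5 and 47.8 in skin (log2 change -3.53, adjusted p = 0.0125). Mlana, of melanosomes, was 0.184 and 7.13 FPKM in tumours and 39.7, 21.4 and 13.5 in skin (log2 change -2.93, adjusted p = 0.0296). In each of these 4 lists both tumours had a lower mean than all 3 skin libraries. Tumour replicate 1 was the lower in muscle, fat and melanocyte genes, and both tumours were alike in Schwann cell genes. Without WT cSCC replicate 1 the falls were 6 in muscle, 0 in fat, 0 in melanocytes and 1 in Schwann cells, and without replicate 2 they were 12, 9, 6 and 2. Leaving out WT skin replicate 1, 2 or 3 gave 1 fat gene each time, 0, 0 and 1 melanocyte genes and 3, 1 and 1 Schwann cell genes. With sex in the fit, 1 muscle gene fell (Ryr1, adjusted p = 0.0321) and 0 of the other 3 lists.

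Of 67 tested markers in 6 leucocyte lists 6 were called (8.96%), against 11.4% of all tested genes. Among neutrophil genes Cxcr2, the chemokine receptor of these cells, was 7.01 and 4.82 FPKM in tumours and 0.506, 0.37 and 0.222 in skin (log2 change 2.33 ± 0.33, adjusted p = 0.00196), the 1 called gene of 9. Arg1, arginase 1, was 66.8 and 84.3 FPKM in tumours and 18.2, 11.5 and 14 in skin (log2 change 2.31 ± 0.39, adjusted p = 0.00464). It was the 1 called gene of 16 in the macrophage list, whose mean was 3.65 and 4.29 in the tumours and 3.95 to 4.71 in skin. The Langerhans cell lectin Cd207 was 0.66 and 0.855 FPKM in tumours and 2.48, 3.19 and 4.54 in skin (log2 change -1.30 ± 0.30, adjusted p = 0.0211). Of 19 T and NK cell genes Ctla4, a brake on T cells, was 2.56 and 2.77 FPKM in tumours and 0.317, 0.305 and 0.124 in skin (log2 change 1.56, adjusted p = 0.0464). Prf1 (perforin) was 0.0889 and 0.145 FPKM in tumours and 1.13, 1.35 and 2.44 in skin (log2 change -1.21, adjusted p = 0.0248). Ighm, of B cells, was 4.57 and 13.8 FPKM in tumours and 34.8, 47.8 and 42.6 in skin (log2 change -2.22, adjusted p = 0.0129). Trdv4, a variable segment of the delta T cell receptor chain that is in no list, was 0.404 and 0 FPKM in tumours and 18.4, 18.2 and 21.4 in skin (log2 change -4.10, adjusted p = 0.0144). It was picked after its values were seen, because the dendritic T cells of mouse epidermis use the gamma-delta receptor. Leucocyte calls were lost for Cd207, Ctla4, Prf1, Ighm and Trdv4 in more than 1 of the fits without WT cSCC replicate 1 or 2 or WT skin replicate 1, 2 or 3 (adjusted p = 0.0503 to 0.185). Adjusting for sex, Cxcr2 and Arg1 were called (adjusted p = 0.032 and 0.015).

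**Figure D3:**
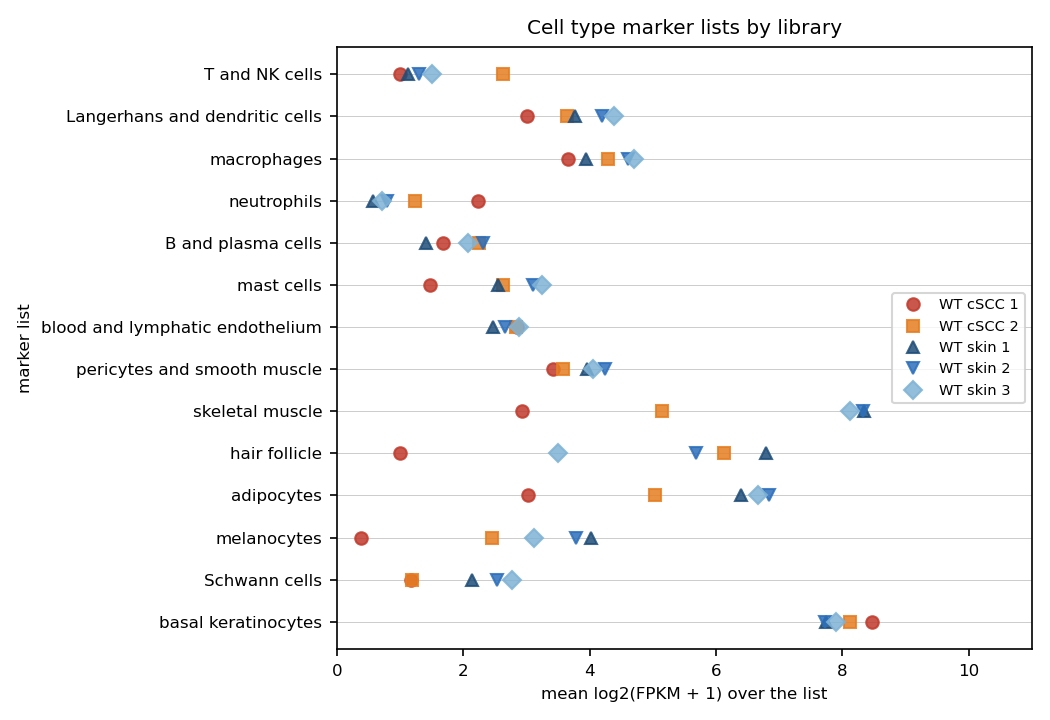
Mean log2(FPKM + 1) of 14 cell type marker lists (rows) in each of the 5 WT libraries (symbols; red and orange are tumours, blues are skin). Skeletal muscle lies at 2.94 and 5.14 in the tumours and at 8.12 or more in skin, and the hair follicle list is at 0.994 in tumour replicate 1 and at 6.13, within the range of skin, in replicate 2.

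The 2 tumours were not alike. Across tested genes their Pearson correlation was 0.864, against 0.929 to 0.969 between WT skin libraries, a description over genes, which are not independent replicates. On the scale of FPKM + 1, replicate 2 had 401 genes at least 4-fold above replicate 1, and replicate 1 had 119 at least 4-fold above replicate 2. Hair genes made up a block of the former: the mean of the hair list was 0.994 in replicate 1, 6.13 in replicate 2 and 6.8, 5.69 and 3.49 in skin. Krt71, a keratin of the inner root sheath, was 1.12 and 1129.6 FPKM in tumours and 1699, 970.3 and 140.2 in skin, and Krtap7-1, a hair shaft protein, was 2.83 and 2639 FPKM in tumours and 2545, 372 and 16.5 in skin. Of 50 tested keratin-associated protein genes 48 were at least 4-fold higher in replicate 2, and 0 were called between the groups in limma, with 0 at an unadjusted p below 0.05. Interferon-induced genes were also higher in replicate 2, with a list mean of 3.52 against 1.87 in replicate 1 and 1.9 to 1.93 in skin. Cxcl9, a chemokine that draws T cells, was 4.8 and 62.3 FPKM in tumours and 5.71, 5.01 and 3.78 in skin, and Cd8a, of cytotoxic T cells, was 0.0409 and 5.18 FPKM in tumours and 0.164, 0.219 and 0.175 in skin. T and NK cell genes had a mean of 2.63 in replicate 2, 1 in replicate 1 and 1.13 to 1.5 in skin. On the other side, 6 of 16 integrin and laminin genes were at least 4-fold higher in replicate 1. Hmga2, a chromatin protein of embryonic and invasive cells, was 85.8 and 0.897 FPKM in tumours and 0.147, 0.166 and 0.156 in skin, so that replicate 2 was near skin and replicate 1 far above it. These differences lie between 2 libraries and have no test. Of the 8 genes with the largest gap in each direction, 4 mitochondrial genes and 4 small or predicted RNAs were higher in replicate 1, and 3 small nuclear RNAs, 1 predicted gene, 3 Krtap genes and Krt71 in replicate 2. All of these apart from the Krtap genes and Krt71 were listed at 0 in the other tumour.

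**Figure D4:**
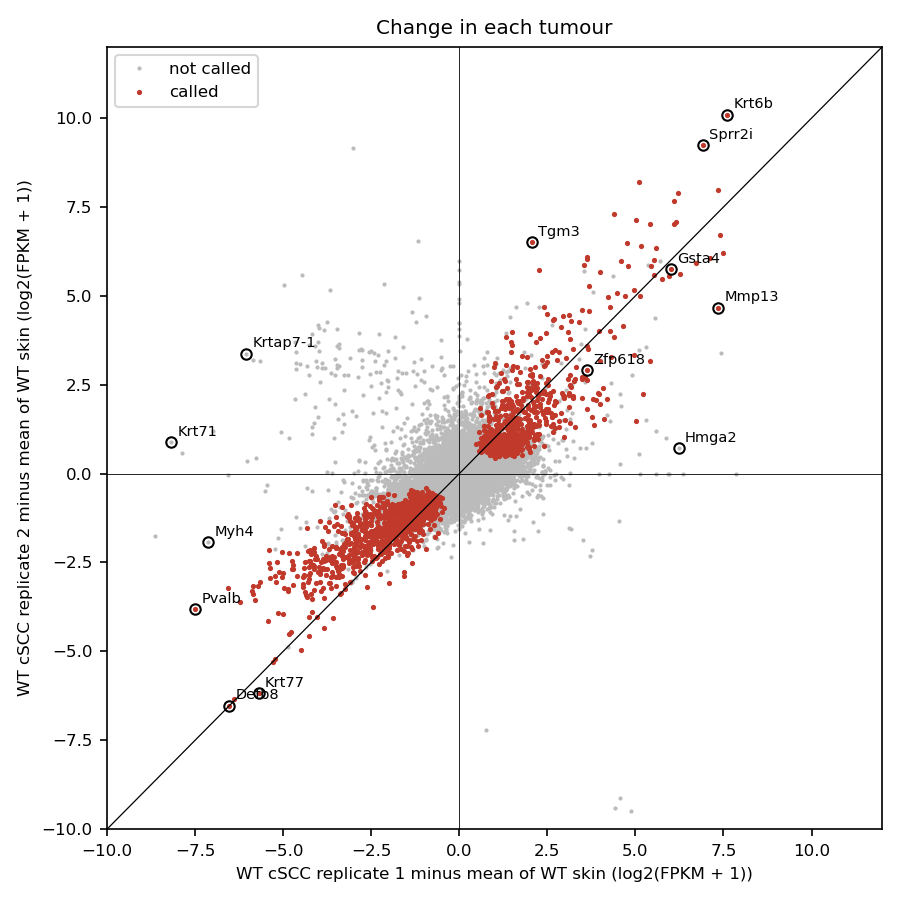
Each point is a tested gene: its log2(FPKM + 1) in WT cSCC replicate 1 (x axis) and replicate 2 (y axis), minus the mean of WT skin; red points are the 1687 called genes and the diagonal marks equal change. Krt6b, Sprr2i and Gsta4 rise and Defb8 and Krt77 fall in both tumours, whereas Krt71 and Krtap7-1 are low in replicate 1 alone and Hmga2 is high in replicate 1 alone.

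A smaller set of genes held under every omission and with sex as a covariate: 115 genes, of which 55 rose and 60 fell. The omissions meant here are of the 5 WT libraries, each in turn, and fits without a TAp63-/- library were not required. These genes were read off after the values were seen. Besides Gsta4, Krt6b, Krt16, Sprr2i, Lce3c, Fosl1, Slpi, Il1a, Hbegf, Vegfa, Dsc2, Cxcr2 and Arg1, the set holds Sh2d5, an adaptor protein gene, at 22.6 and 15.3 FPKM in tumours and 0.379, 0.0303 and 0.0136 in skin (log2 change 4.12 ± 0.28, adjusted p = 9e-05). Mapk6 (ERK3), an atypical MAP kinase, was 210.1 and 135 FPKM in tumours and 22.3, 23 and 23.8 in skin (log2 change 2.82 ± 0.21, adjusted p = 0.000139). Among redox genes, Gsto1 was 324 and 263 FPKM in tumours and 33, 30.9 and 31.6 in skin (log2 change 3.16 ± 0.28, adjusted p = 0.000239). Txn1 (thioredoxin) was 586 and 573 FPKM in tumours and 117, 106 and 83.7 in skin (log2 change 2.50 ± 0.35, adjusted p = 0.00176). Il4ra, a receptor chain for interleukins 4 and 13, was 34.6 and 39.8 FPKM in tumours and 6.34, 6.38 and 7.49 in skin (log2 change 2.30 ± 0.21, adjusted p = 0.000258). Fabp5, the fatty acid carrier of epidermis, was 2545 and 4510.0 FPKM in tumours and 531, 494 and 355 in skin (log2 change 2.90 ± 0.39, adjusted p = 0.00137). Elf3, an epithelial transcription factor, was 9.1 and 14.6 FPKM in tumours and 0.882, 1.02 and 0.714 in skin (log2 change 2.75 ± 0.36, adjusted p = 0.0013). In each of these, both tumours lay above all 3 skin libraries. Among the falls, Paqr7, a membrane progestin receptor, was 4.57 and 5.94 FPKM in tumours and 119, 151 and 194 in skin (log2 change -4.62 ± 0.34, adjusted p = 0.000139). Des (desmin), of muscle filaments, was 10.7 and 19.997 FPKM in tumours and 135, 162 and 132 in skin (log2 change -3.20 ± 0.35, adjusted p = 0.000532).

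The difference between tumour and skin was then compared between genotypes, a test of whether the WT change differed from that in TAp63-/- mice. Of the 688 genes that rose in WT, 593 (86.2%) also rose in TAp63-/- tumours against TAp63-/- skin, where 1920 rose (13.0% of tested genes), so that the shared genes were 30.9% of that list. Of the 999 that fell, 920 (92.1%) fell there too, 43.9% of the 2097 (14.2%) that fell in TAp63-/-. The 2 comparisons share no library but share the estimate of the spread. The difference itself was called for 4 genes (0.0271%): Zfp618, Skint3, Skint4 and Skint9. Without WT cSCC replicate 1 it was called for 15, and without WT skin replicate 2 or TAp63-/- skin replicate 2 for 1, Skint9.

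Zfp618 (ENSMUSG00000028358, chromosome 4, 62965573 to 63139708), a zinc finger protein gene, rose in WT tumours and not in TAp63-/- tumours. It was 19 and 11.3 FPKM in tumours and 1.09, 0.753 and 0.175 in skin (log2 change 3.27 ± 0.30, adjusted p = 0.000271). In TAp63-/- tumours it was 0.280, 0.242, 0.576 and 0.153 FPKM and in TAp63-/- skin 0.136, 0.349 and 0.568. Both WT tumours thus stood above the other 10 libraries, which had 1.09 FPKM or less. The difference between the changes was 3.31 (SE 0.40, adjusted p = 0.0163). It was not called in 6 of 12 fits that left out 1 library (without WT skin replicate 2, TAp63-/- cSCC replicates 1, 2 and 4 and TAp63-/- skin replicates 2 and 3; adjusted p 0.0282 to 0.0815 over the 12), nor with sex as a covariate, tissue weights, a filter at 5 FPKM or a pseudocount of 0.1 (adjusted p = 0.056, 0.0724, 0.465 and 0.627). Of 12 tested genes within 500 kb of Zfp618, 2 were called between WT tumours and skin, where 11.4% of all tested genes were called. These were Alad and Orm1, and both fell.

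Skint genes encode membrane proteins of keratinocytes that guide the gamma-delta T cells of the epidermis. Skint9 (ENSMUSG00000049972, chromosome 4, 112385969 to 112433985) was 4.18 and 3.41 FPKM in tumours and 0.018, 0.0369 and 0.0135 in skin (log2 change 2.23 ± 0.30, adjusted p = 0.00144), and in TAp63-/- tumours it was 1.25, 1.31, 0.395 and 1.52 FPKM against 72.9, 102 and 54.0 in TAp63-/- skin. Skint3 (ENSMUSG00000070868, chromosome 4, 112232245 to 112300468) was 7.57 and 15.1 FPKM in tumours and 0, 0.00987 and 0.0186 in skin (log2 change 3.54 ± 0.49, adjusted p = 0.00169). Skint4 (ENSMUSG00000055960, chromosome 4, 112072016 to 112168076) was 2.41 and 2.84 FPKM in tumours and 0, 0.0208 and 0.00486 in skin (log2 change 1.84 ± 0.40, adjusted p = 0.0147). These 3 neighbours were near 0 in WT skin and rose in WT tumours, while in TAp63-/- mice all 3 were high in skin and fell in tumours. Their differences between the changes were 7.40, 5.83 and 4.61 for Skint9, Skint3 and Skint4 (adjusted p = 1.47e-05, 0.0119 and 0.0119). Other genes of the family went down in WT tumours: of 11 tested, 3 rose and 6 fell. Skint10 was 2.24 and 1.66 FPKM in tumours and 43.9, 57.1 and 93.3 in skin (log2 change -4.42 ± 0.52, adjusted p = 0.000813). Skint2 was 0.853 and 1.29 FPKM in tumours and 25.1, 32.1 and 43.6 in skin (log2 change -4.04 ± 0.49, adjusted p = 0.000942). Skint1, which the maturation of these T cells needs, was 4.11 and 7.67 FPKM in tumours and 9.91, 11.6 and 14.3 in skin (log2 change -0.94, adjusted p = 0.46). The WT call was lost for Skint4 in more than 1 of the fits without WT cSCC replicate 1 or 2 (adjusted p = 0.0539 to 0.0849).

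**Figure D5:**
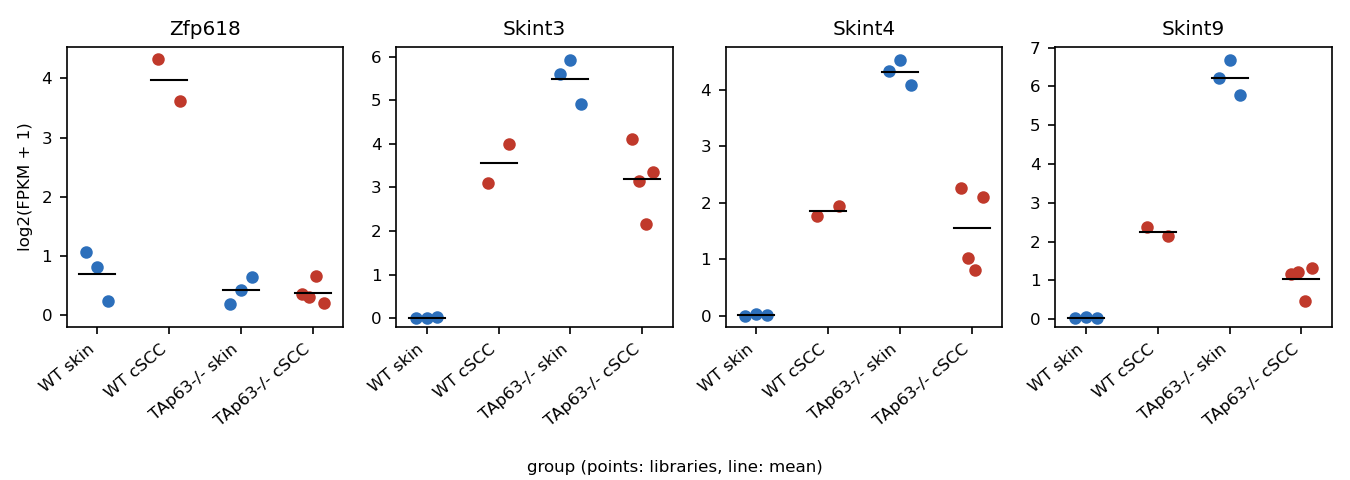
log2(FPKM + 1) of the 4 genes called in the test of the difference between genotypes, for every library (points; lines are group means; blue is skin, red is cSCC). Zfp618 is high in the 2 WT tumours alone, and Skint3, Skint4 and Skint9 are near 0 in WT skin, intermediate in both groups of tumours and highest in TAp63-/- skin.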

How the data were processed

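Per the labels' protocols, total RNA of frozen tissue (miRVANA, Ambion) went into Illumina libraries (TruSeq RNA) for sequencing. The submitters' processing notes name TopHat2 2.0, Cufflinks 2.0 and the mouse build mm10; strand settings are not given in the sources used here. The deposited values were taken as FPKM, a unit inferred from Cufflinks and the values. In every library 100% of sorted values of 1 FPKM or more lay within 1% of common values, so quantile normalization by the authors was inferred; no note records it. Read depth is thus unknown.

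The table's 37924 entries were summed to 34303 symbols. Genes that reached 1 FPKM in 2 or more of 12 libraries were tested on log2(FPKM + 1) with limma 3.58.1 in R 4.3.3 (group means of all 4 groups, variance trend, two-sided, Benjamini-Hochberg over 14752 genes, adjusted p below 0.05). The procedure was tested on simulated data. Coordinates are mm10, counted from 1, and equalled GENCODE M21 for 21541 symbols. The 45 lists (30 pathways, 15 cell types) hold 679 genes, of which 672 were in the table (8 through the Ensembl identifier) and 640 were tested. Members and lists were chosen with earlier results of these data known, and gene families were grouped after the values were seen. Named were the 10 largest rises and falls with groups apart and at least 5 FPKM, 4 called genes per list by p (or the 2 highest), the 8 largest gaps between both tumours each way, up to 6 genes that differed between genotypes, and Trp63, Trp53 and Trp73; others complete a group. A few of these are left out and not reported here. Alternatives covered pseudocount, filter, rescaling, weights, moderation, sex, title number, the libraries in the fit, and summing; tissue weights together with sex were added after seeing the data.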

Additional observations from a re-analysis of the deposited data

Results flagged for a closer look

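The change from skin to tumour differed between genotypes for 4 genes, by the test of the difference itself over all 12 libraries. The difference was 7.40 for Skint9, 5.83 for Skint3, 4.61 for Skint4 and 3.31 for Zfp618 on the log2(FPKM + 1) scale, WT minus TAp63-/-, with adjusted p = 1.47e-05, 0.0119, 0.0119 and 0.0163 in limma. Skint9 was called in 12 of 12 fits that left out 1 library. Skint3 and Skint4 were called in 9 of 12 (not without WT cSCC replicate 2, WT skin replicate 2 or TAp63-/- skin replicate 2; highest adjusted p = 0.0707 and 0.0748), and Zfp618 in 6 of 12 (highest adjusted p = 0.0815). Zfp618 was also not called with sex as a covariate, tissue weights, a filter at 5 FPKM or a pseudocount of 0.1. The 3 Skint genes were near 0 in WT skin and high in TAp63-/- skin. Zfp618 was high in the 2 WT tumours alone.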

How the results depend on the processing

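The count of genes called between WT tumours and WT skin was 1687. It was 255 with sex as a covariate, 22 with tissue weights and sex together (added after the data were seen), and 464 to 1907 when 1 of the 5 WT libraries was left out, lowest without WT cSCC replicate 1 and highest without WT cSCC replicate 2. In the remaining settings other than the replicate block it ran from 1186 (tissue weights) to 1949 (the 5 WT libraries alone). Leaving out a tumour left its group with 1 library, assumed to vary like the other groups. For the difference between genotypes the count was 4, and 1 to 15 when 1 library was left out. Xist turned from a rise to a change of -0.76 with sex as a covariate, alone or with tissue weights, since sex then takes up its difference. Among the other named genes that were called in the main fit or in the alternative, none turned its sign there. Signs of genes called in neither fit were not compared.

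With the running number of the titles as a replicate block, 475 genes were called, and 0 for the difference between genotypes (460 at an unadjusted p below 0.05 in limma). The numbers share no stated animal or day. Deviations from the group means correlated at -0.24 to 0.19 within the 6 same-numbered pairs, over 0.1 in 3, and 4 of 12 libraries correlated best with their own number in the other tissue.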
